A study of Mus musculus with 36 samples.

Results

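The genes described here are 10 activity-induced effectors of neurons in the mouse hippocampus: Arc, Npas4, Homer1, Nptx2, Inhba, Pcsk1, Plk2, Rgs2, Gadd45b and Btg2. They were chosen by symbol, whatever their level, from the 55421 genes of the deposited expression table. Each symbol matched 1 gene identifier, and all 10 were among the 19478 genes that passed the filter on low counts and were tested. Levels are given as CPM, the count scaled to a common library size, in each sample and as stimulated minus sham differences within each mouse.

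Synaptic activity lets calcium into a neuron, and calcium-dependent kinases then switch on transcription through factors such as CREB, SRF and MEF2. The earliest products include transcription factors, of which Npas4 is the most selective for neuronal calcium signals, and effectors that act directly at the synapse or on signalling. In the hippocampus these effectors are known for adjusting glutamate receptors, secreting signals to neighbouring cells and damping receptor signalling after strong activity.

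Hippocampal slices were taken from the right hippocampus of 18 mice at 16 months of age. T41B mice carry human APP with the London and Swedish mutations under the neuronal Thy1 promoter (Line 41), and wild-type (WT) mice were C57BL/6. Both genotypes had been dosed by oral gavage for 3 months, from 13 months of age, with vehicle (VEH) or with BD10-2 (written PTX-BD10-2 in the treatment labels), a compound that partly activates TrkB and TrkC, the receptors of BDNF and neurotrophin-3. A stimulated slice received theta-burst stimulation 3 times, each time 10 short bursts given 200 ms apart, with 4 pulses per burst at 100 Hz, and a sham slice was held for as long without bursts. All slices were frozen immediately afterwards, so the values describe RNA at the end of the stimulation procedure, and every group had been through slicing.

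The 36 libraries came from 32 mouse-and-slice samples, because 4 samples had 2 libraries under the same labels, which were summed and counted once; whether these are 2 libraries of 1 slice or of 2 slices of the mouse is not given in the sources used here. There were 4 sham and 4 stimulated samples in each vehicle group, 3 and 3 in the WT BD10-2 groups, and 5 and 5 in the T41B BD10-2 groups. Of the 18 mice, 14 gave both a sham and a stimulated slice. Library totals ranged from 11597555 to 28125842 counts, with a median of 18082415. The 2 libraries of 1 sample differed by up to 2.2-fold for a member (Pcsk1, at 16.1 and 35.5 CPM in the WT BD10-2 sham sample of Mouse1565) while the other 3 pairs differed by 1.03- to 1.15-fold for Pcsk1. Each of the 8 batch labels held mice of 1 treatment only.

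All 8 neuron markers examined, including Slc17a7 of excitatory neurons and Prox1 of dentate granule cells, passed the low-count filter, and their summed level was 2963 to 4379 CPM in sham and 2235 to 3792 CPM in stimulated slices. In bulk RNA, fewer cells of a type and less RNA per cell cannot be told apart, which applies to every difference below. Other cell types moved with the groups as well. The summed level of 6 microglia markers was 223 to 838 CPM in sham and 89.3 to 463 CPM in stimulated slices, and that of 10 acute inflammatory genes was 198 to 655 and 825 to 4736 CPM. Choroid plexus markers summed to 15 to 20 CPM in the WT vehicle sham slices and to between 13.9 and 1200 CPM in the WT vehicle stimulated slices, and reached 526 and 293 CPM in the T41B vehicle sham and stimulated slices.

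Promoter windows, the 250 bases before an annotated transcription start (RefSeq, build GRCm38.p6), had an entry for 8 of the 10 genes, with 2 for Homer1; Arc and Nptx2 had none. The 5 windows below belong to the genes whose RNA changed with stimulation and that had an entry, and capitals mark the letters TGACG or CGTCA, the core of the cAMP response element (CRE) that CREB binds. The Gadd45b window is chr10:80929841-80930090 (plus strand), Inhba chr13:16011601-16011850 (plus), Plk2 chr13:110394794-110395043 (plus), Pcsk1 chr13:75089607-75089856 (plus) and Btg2 chr1:134079156-134079405 (minus, printed 5′ to 3′ along the gene).
Gadd45b: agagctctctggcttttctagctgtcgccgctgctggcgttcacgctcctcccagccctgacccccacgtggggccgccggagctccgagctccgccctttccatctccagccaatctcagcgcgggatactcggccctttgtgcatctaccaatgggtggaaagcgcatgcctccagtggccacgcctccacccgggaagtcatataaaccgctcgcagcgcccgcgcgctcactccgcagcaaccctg
Inhba: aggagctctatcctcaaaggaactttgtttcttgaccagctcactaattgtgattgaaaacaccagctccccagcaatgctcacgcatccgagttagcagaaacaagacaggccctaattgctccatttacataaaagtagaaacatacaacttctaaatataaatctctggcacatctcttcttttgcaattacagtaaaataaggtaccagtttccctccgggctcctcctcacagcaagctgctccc
Plk2: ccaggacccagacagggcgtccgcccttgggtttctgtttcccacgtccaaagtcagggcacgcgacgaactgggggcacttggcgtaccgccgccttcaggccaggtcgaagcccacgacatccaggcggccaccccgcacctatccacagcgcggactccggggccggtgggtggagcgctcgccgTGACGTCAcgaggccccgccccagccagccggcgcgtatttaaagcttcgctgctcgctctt
Pcsk1: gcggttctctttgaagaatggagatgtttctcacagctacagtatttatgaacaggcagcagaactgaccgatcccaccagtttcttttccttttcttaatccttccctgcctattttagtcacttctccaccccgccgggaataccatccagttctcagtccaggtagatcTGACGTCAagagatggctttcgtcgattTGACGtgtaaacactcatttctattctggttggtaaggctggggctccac
Btg2: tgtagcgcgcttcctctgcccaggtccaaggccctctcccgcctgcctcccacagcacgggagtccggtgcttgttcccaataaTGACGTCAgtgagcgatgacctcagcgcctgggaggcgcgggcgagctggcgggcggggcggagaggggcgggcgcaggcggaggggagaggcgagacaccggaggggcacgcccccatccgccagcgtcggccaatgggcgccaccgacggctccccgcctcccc
The full palindromic CRE, TGACGTCA, which holds the core on both strands with an overlap, was found in 3 of the 8 genes: 62 bases before the start in Plk2, 78 in Pcsk1 and 166 in Btg2. Among 32851 promoter windows of the same length, 1.55% held it. The core TGACG, searched on both strands, was in 6 of the 8 genes (9 windows) against 17.8% of all windows. Gadd45b and Inhba were the 2 genes without it, and of the 2 Homer1 windows only the first held it. Plk2 RNA was higher, and Pcsk1 and Btg2 RNA lower, in stimulated slices, so the windows with the full CRE belonged to genes that moved in both directions. TATAAA was found in the Inhba and Gadd45b windows, 91 and 46 bases before the start, and in 12.4% of all windows. The E-box CACGTG was found in Gadd45b alone (6.02% of all windows), a kappaB motif in Npas4 alone (7.25%), and no member window held a CArG box, the SRF motif (1.47%). These are matches of letters in windows at 1 or 2 annotated starts per gene; the Inhba, Pcsk1 and Npas4 windows and the second Homer1 window lie inside the annotated bounds of their genes, which extend further upstream.

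Levels differed widely between the genes. Per kilobase of exon, the median over the 32 samples was 84.5 CPM for Arc, 56.8 for Plk2 and 45.2 for Gadd45b. It was 12.6 for Homer1, 11.9 for Nptx2, 11.6 for Btg2, 8.15 for Npas4 and 6.42 for Rgs2, and lowest for Pcsk1 (3.03) and Inhba (1.72). Rgs2 varied least over the samples, with a highest CPM 1.63 times its lowest, and Gadd45b most, at 9.44 times.

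**Figure D1:**
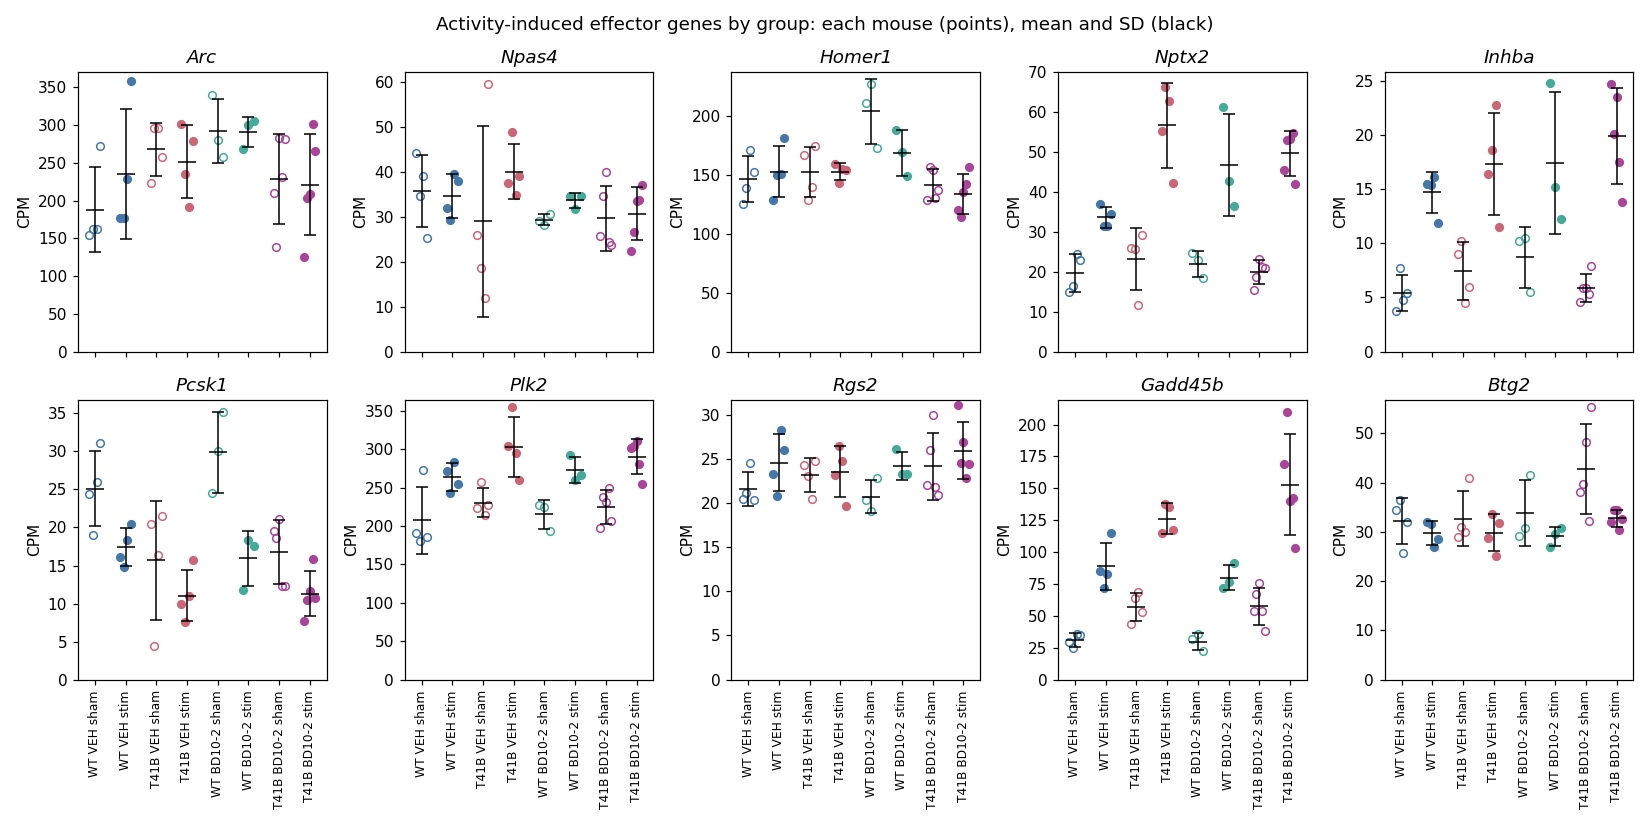
CPM of each of the 10 genes in the 8 groups, each point 1 mouse and slice (open circles sham, filled circles stimulated), with the group mean and SD in black and a separate linear axis from 0 for each gene. Stimulated slices lie above sham slices for Nptx2, Inhba and Gadd45b, and T41B slices tend to lie above WT slices for Gadd45b and below them for Pcsk1.

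The main question for these genes was whether theta-burst stimulation changed their RNA by the time the slice was frozen. Gadd45b, Inhba and Nptx2 were between 1.71 and 3.39 times as high in stimulated as in sham slices in each combination of genotype and treatment, and Plk2 was higher by a smaller, even margin. Pcsk1 and Btg2 were lower when the 4 combinations were averaged. Arc, Npas4, Homer1 and Rgs2 did not pass the test in any combination or on average. With edgeR's quasi-likelihood test and an adjusted p under 0.05 over all genes tested as the call, 4 of the 10 genes were called in WT vehicle slices (12.3% of all genes were), 4 in T41B vehicle (21.5%), 3 in WT BD10-2 (8.87%) and 5 in T41B BD10-2 (22.9%). All of these were higher in stimulated slices except 1, Btg2 in T41B BD10-2; of all genes, 8.21%, 11.7%, 6.29% and 13.3% were called higher in the 4 combinations and 9.52% lower in the last. Averaged over the 4 combinations, 6 of the 10 were called against 46.8% of all genes, 4 of them higher (22.2% of all genes) and 2 lower (24.6%), so the share of called genes in this average was near the background. The median log2 ratio of the 10 genes was 0.15 and that of all genes −0.03.

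Among the secreted factors, Nptx2 encodes neuronal pentraxin 2, which is released at excitatory synapses and clusters AMPA receptors there. In WT vehicle mice Nptx2 was 14.9, 16.3, 24.4 and 22.9 CPM in sham slices and 36.9, 31.5, 31.5 and 34.5 CPM in the stimulated slices of the same mice (Mouse1509, Mouse1513, Mouse1522 and Mouse1524). In T41B vehicle mice it was 25.9, 25.7, 11.7 and 29.1 CPM in sham and 55.3, 66.3, 62.6 and 42.2 CPM in stimulated slices (Mouse1510, Mouse1551, Mouse1553 and Mouse1579). Every stimulated slice of both vehicle groups was above every sham slice of its group. In WT BD10-2 mice the sham slices were at 18.3, 22.9 and 24.6 CPM and the stimulated at 36.5, 42.6 and 61.1 CPM. In T41B BD10-2 mice the sham slices were at 15.5, 18.7, 20.9, 21.2 and 23.2 CPM and the stimulated at 41.9, 45.5, 52.9, 53.3 and 54.8 CPM. The groups did not overlap there either. Nptx2 rose 1.71-fold in WT vehicle (log2 ratio 0.77 ± 0.20 SE, edgeR adjusted p = 0.0111), 2.45-fold in T41B vehicle (1.29 ± 0.20, 2.11e-05), 2.12-fold in WT BD10-2 (1.08 ± 0.23, 0.0022) and 2.5-fold in T41B BD10-2 (1.32 ± 0.18, 1.81e-06). The WT vehicle call was lost without Mouse1509 (log2 ratio 0.61, edgeR adjusted p = 0.124) or without Mouse1513 (0.73, 0.0612), and the WT BD10-2 call without Mouse1565 (0.92, 0.0609).

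Inhba encodes the beta-A subunit of activin A, a secreted ligand of the TGF-beta family. It had the lowest level per kilobase of the 10 genes. In WT vehicle mice, in the same order of mice as for Nptx2, it was 3.79, 7.71, 4.78 and 5.43 CPM in sham and 15.5, 15.4, 16.1 and 11.9 CPM in stimulated slices. In T41B vehicle mice it was 9.06, 10.2, 4.46 and 5.98 CPM in sham and 16.4, 18.6, 22.8 and 11.5 CPM in stimulated slices. The lowest stimulated value exceeded the highest sham value in each of these groups. The WT BD10-2 slices were at 5.47, 10.2 and 10.5 CPM (sham) and 12.3, 15.2 and 24.8 CPM (stimulated), and the T41B BD10-2 slices at 4.54, 5.28, 5.84, 5.86 and 7.94 CPM (sham) and 13.8, 17.5, 20.1, 23.5 and 24.7 CPM (stimulated). Again the groups did not overlap. Inhba rose 2.73-fold in WT vehicle (log2 ratio 1.45 ± 0.27 SE, edgeR adjusted p = 0.00042), 2.34-fold in T41B vehicle (1.22 ± 0.27, 0.00112), 1.98-fold in WT BD10-2 (0.98 ± 0.30, 0.0346) and 3.39-fold in T41B BD10-2 (1.76 ± 0.24, 1.61e-06). The WT BD10-2 call was not kept with the mouse as a replicate block (0.94, edgeR adjusted p = 0.123), without Mouse1565 (0.76, 0.268), without Mouse1571 (1.20, 0.0624) or without Mouse1590 (0.75, 0.218). It was also not kept with only the deeper library of each sample that had 2 (0.89, 0.0532) or with only the groups compared fitted (0.98, 0.0588). The fit with the mouse as a replicate block held only mice with both slices, of which 2 were WT BD10-2.

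Pcsk1 encodes prohormone convertase 1/3, which cuts neuropeptide and neurotrophin precursors in secretory granules. Its level moved the other way. In WT vehicle mice it was 24.4, 19, 26 and 31.1 CPM in sham and 16.1, 14.8, 18.4 and 20.5 CPM in stimulated slices, lower after stimulation in each mouse although the groups overlapped. In T41B vehicle mice it was 20.4, 4.44, 16.4 and 21.5 CPM in sham and 9.91, 7.61, 11 and 15.7 CPM in stimulated slices; Mouse1551, with the lowest sham value of all, was the 1 mouse in which it was higher after stimulation. WT BD10-2 slices were at 24.5, 30 and 35.2 CPM (sham) and 11.8, 17.6 and 18.4 CPM (stimulated) with no overlap, and T41B BD10-2 slices at 12.3, 12.3, 18.6, 19.6 and 21.1 CPM (sham) and 7.67, 10.5, 10.7, 11.7 and 15.9 CPM (stimulated) with overlap. No single combination passed the test, with log2 ratios from −0.50 to −0.91 and edgeR adjusted p from 0.0892 to 0.253. With limma-voom and the mouse as a random replicate block it was called lower in WT BD10-2 (−0.90, adjusted p = 0.0211) and T41B BD10-2 slices (−0.63, 0.0455), and in WT BD10-2 slices also when only the groups compared were fitted (−0.90, edgeR adjusted p = 0.0123). Averaged over the combinations, Pcsk1 fell to 0.646 times its sham level (log2 ratio −0.63 ± 0.15 SE, edgeR adjusted p = 0.000958).

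Plk2 encodes polo-like kinase 2, which weakens excitatory synapses after prolonged activity. Its sham slices were at 191, 181, 273 and 186 CPM in WT vehicle mice and its stimulated slices at 272, 243, 284 and 255 CPM, higher in each mouse, with the sham slice of Mouse1522 reaching into the stimulated range. In T41B vehicle mice it was 223, 257, 214 and 228 CPM in sham and 304, 355, 295 and 260 CPM in stimulated slices. WT BD10-2 slices were at 194, 225 and 227 CPM (sham) and 260, 267 and 292 CPM (stimulated), and T41B BD10-2 slices at 198, 207, 231, 238 and 250 CPM (sham) and 255, 281, 302, 304 and 311 CPM (stimulated). These last 3 pairs of groups did not overlap. The rise was 1.27-fold in WT vehicle (log2 ratio 0.34 ± 0.11 SE, edgeR adjusted p = 0.0367), 1.32-fold in T41B vehicle (0.40 ± 0.11, 0.00871) and 1.29-fold in T41B BD10-2 (0.37 ± 0.10, 0.00567). The WT BD10-2 difference had the same size but did not pass (0.34 ± 0.13, edgeR adjusted p = 0.0901), but passed when only the groups compared were fitted (0.34, 0.0388) and by limma-voom with the mouse as a random replicate block (0.33, adjusted p = 0.0263). The WT vehicle call for Plk2 was lost without Mouse1509 (0.29, 0.198), Mouse1513 (0.32, 0.119) or Mouse1524 (0.31, 0.145), and when only the groups compared were fitted (0.35, 0.128), all by edgeR adjusted p.

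Arc and Homer1 act on the postsynaptic side: Arc promotes the endocytosis of AMPA receptors, and Homer1 encodes scaffold proteins that tie metabotropic glutamate receptors to their effectors. Arc had the highest level per kilobase and no consistent direction. It was 155, 163, 162 and 273 CPM in WT vehicle sham slices and 177, 177, 229 and 359 CPM in the stimulated slices, higher in 4 of 4 mice. In T41B BD10-2 mice with both slices it was lower after stimulation in 4 of 4, with differences from −0.08 to −0.48 on the log2(CPM + 1) scale. The groups overlapped in all 4 combinations, and the mean log2 ratio was 0.04 ± 0.12 SE (edgeR adjusted p = 0.797). Homer1 ranged from 125 to 227 CPM in sham and from 114 to 188 CPM in stimulated slices, with a mean log2 ratio of −0.08 ± 0.06 SE (edgeR adjusted p = 0.313). The gene-level counts add up the long Homer1 transcripts and the short activity-induced form, Homer1a. A change confined to the short form would be diluted in them, and a small or offset one could be missed.

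Rgs2, which speeds the shut-off of G proteins of the Gq class, was 19.1 to 30 CPM in sham and 19.7 to 31.1 CPM in stimulated slices. Its mean log2 ratio was 0.14 ± 0.06 SE (edgeR adjusted p = 0.0627). It passed the threshold with the mouse as a replicate block (0.18, edgeR adjusted p = 0.021), with a batch covariate (0.14, 0.0282), with RLE size factors (0.15, 0.0467), with limma-voom and the mouse as a random replicate block (0.14, adjusted p = 0.0165) and with DESeq2 (0.15, adjusted p = 0.0411), so for Rgs2 the call depended on the model. It also passed when any 1 of 6 mice was left out (Mouse1513, Mouse1564, Mouse1572, Mouse1579, Mouse1586 or Mouse1590), with edgeR adjusted p from 0.0214 to 0.0462.

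Of the genes that act in the nucleus or on RNA, Gadd45b, a small stress- and activity-induced protein linked to DNA demethylation and to stress kinases, showed the most even difference. In WT vehicle mice it was 29.2, 24.6, 35.4 and 35.3 CPM in sham and 85.4, 71.8, 82.8 and 115 CPM in stimulated slices. In T41B vehicle mice it was 43.3, 63.6, 68.3 and 52.6 CPM in sham and 115, 138, 135 and 117 CPM in stimulated slices. Sham and stimulated values were well separated in both. In WT BD10-2 mice the slices were at 22.2, 31.9 and 35.4 CPM (sham) and 71.9, 76.8 and 91.1 CPM (stimulated), and in T41B BD10-2 mice at 37.8, 53.6, 53.8, 66.9 and 75.6 CPM (sham) and 103, 140, 142, 169 and 210 CPM (stimulated). Gadd45b rose 2.84-fold in WT vehicle (log2 ratio 1.51 ± 0.20 SE, edgeR adjusted p = 3.72e-06), 2.21-fold in T41B vehicle (1.15 ± 0.20, 8.15e-05), 2.67-fold in WT BD10-2 (1.42 ± 0.23, 9.47e-05) and 2.66-fold in T41B BD10-2 (1.41 ± 0.18, 4.25e-07). The 4 calls were kept when any 1 mouse was left out.

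Btg2, an antiproliferative protein that binds the CCR4-NOT deadenylase, was lower in stimulated slices of T41B BD10-2 mice, at 30.3, 32, 32.6, 34.4 and 34.5 CPM against 32.1, 38, 39.8, 48.3 and 55.3 CPM in sham slices. The 2 groups overlapped at their edges. Btg2 fell to 0.767 times the sham level there (log2 ratio −0.38 ± 0.12 SE, edgeR adjusted p = 0.0252). The call was lost without Mouse1592 (−0.27, edgeR adjusted p = 0.143), Mouse1564 (−0.35, 0.0898) or Mouse1572 (−0.36, 0.0612). In the other 3 combinations its log2 ratio was −0.11 to −0.22 and not called. The average over combinations was −0.21 ± 0.07 SE (edgeR adjusted p = 0.0164). With the mouse as a replicate block, in the 14 mice with both slices, it was −0.16 (edgeR adjusted p = 0.0507). Without Mouse1590 it was −0.15 (edgeR adjusted p = 0.0784).

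Npas4, a neuron-restricted transcription factor that shapes inhibitory synapses, ranged from 11.9 to 59.7 CPM in sham and from 22.5 to 49 CPM in stimulated slices. The widest group was the T41B vehicle sham group, at 11.9, 18.6, 25.9 and 59.7 CPM. In T41B vehicle slices the log2 ratio was 0.47 ± 0.28 SE (edgeR adjusted p = 0.25), and averaged over the combinations 0.17 ± 0.14 (edgeR adjusted p = 0.344). Mouse1579 decided both: without it the T41B vehicle log2 ratio was 1.11 (edgeR adjusted p = 0.00115) and the average 0.33 (0.012), and both were called. Npas4 was also called in T41B vehicle slices by limma-voom with the mouse as a random replicate block (0.72, adjusted p = 0.0225). Only WT BD10-2 slices did not overlap, at 28.3, 29.1 and 30.7 CPM (sham) and 31.7, 34.6 and 34.7 CPM (stimulated), a log2 difference of 0.20 ± 0.32 that was not called (edgeR adjusted p = 0.775).

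Within mice, the comparison holds genotype, treatment and batch constant, since both slices of a mouse carried the same batch label. In the 14 mice with both slices, Gadd45b, Nptx2, Inhba and Plk2 were each higher in the stimulated slice in 14 of 14. Over all genes tested, 14.4% had the same direction in all 14 mice. The mean difference in log2(CPM + 1) was 1.31 ± 0.20 (SD, n = 14 mice) for Gadd45b, 1.27 ± 0.54 for Inhba, 1.08 ± 0.48 for Nptx2 and 0.35 ± 0.13 for Plk2. Gadd45b thus had the smallest spread relative to its size, with single mice between 0.97 and 1.67, while Inhba ran from 0.49 to 2.12 and Nptx2 from 0.35 to 2.33. Pcsk1 was lower in 13 of 14 mice (mean −0.52 ± 0.47 SD) and Btg2 in 11 of 14 (−0.18 ± 0.24). Rgs2 was higher in 10 of 14 (0.13 ± 0.22) and Npas4 in 9 of 14 (0.21 ± 0.68), and Arc (−0.02 ± 0.35) and Homer1 (−0.06 ± 0.23) in 7 of 14 each.

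**Figure D2:**
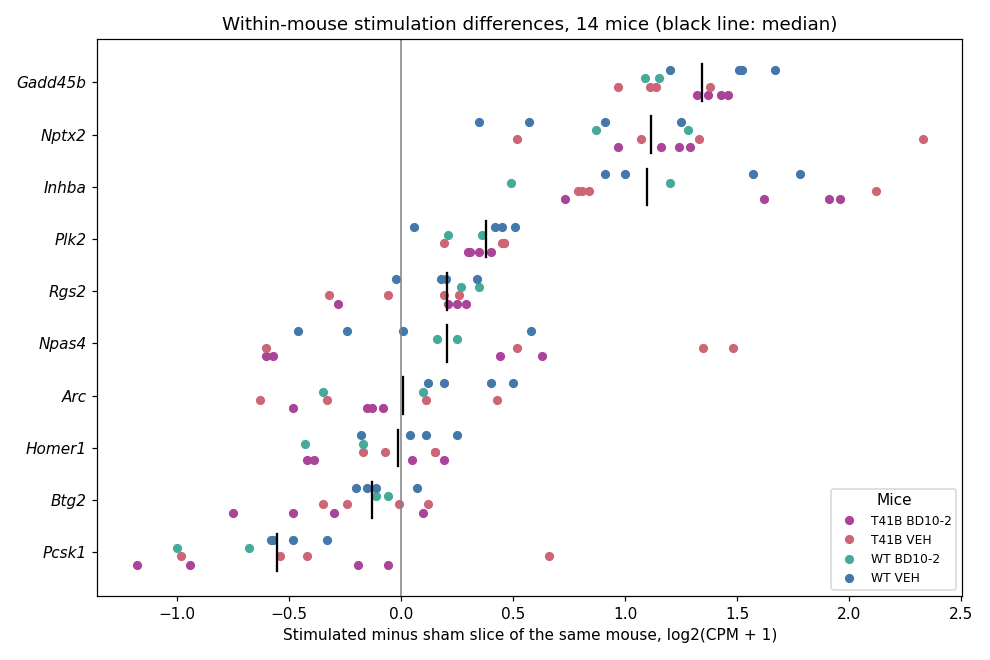
Stimulated minus sham difference in log2(CPM + 1) for each of the 14 mice with both slices, coloured by genotype and treatment, with genes in rows ordered by their median (black line). All points lie above 0 for Gadd45b, Nptx2, Inhba and Plk2, 13 of 14 lie below 0 for Pcsk1, and the points of Arc and Homer1 lie evenly on both sides.

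Other activity-induced genes are given for the same average over the combinations, in which 22.2% of all genes were called higher and 24.6% lower. Of 20 other activity-induced effectors, 10 were called higher and 3 lower, with a median log2 ratio of 0.25. The largest was Ptgs2, the inducible cyclooxygenase (2.85 ± 0.18 SE, edgeR adjusted p = 8.55e-14). It was 34.1 ± 12.3 CPM (SD, n = 4) in sham and 110 ± 23.1 CPM in stimulated WT vehicle slices, and 31 ± 12.5 and 403 ± 146 CPM in T41B vehicle slices. With BD10-2 it was 32 ± 5.94 and 118 ± 39.9 CPM in WT (n = 3) and 26.8 ± 4.74 and 476 ± 218 CPM in T41B (n = 5). Gadd45g (1.35 ± 0.09), Crem, which encodes the CRE-binding repressor ICER among its products (1.27 ± 0.08), Pim1 (1.24 ± 0.12) and Plat, tissue plasminogen activator (1.14 ± 0.10), rose by more than 2-fold. Errfi1 (0.59), Gpr3 (0.35), Arl4d (0.31), Sorcs3 (0.29) and Fbxo33 (0.26) rose less. Nrn1, neuritin (−0.38 ± 0.06, edgeR adjusted p = 1.9e-06), Syt4 (−0.26) and Per1 (−0.21) fell. Bdnf, the ligand of TrkB and singled out for that after its values were seen, was at 0.17 ± 0.07 and not called (edgeR adjusted p = 0.057), nor was it called in any single combination (log2 ratios −0.09 to 0.36). Of 12 immediate-early transcription factors, 2 rose and 4 fell, with a median of −0.06, and this share of called genes was near the 46.8% of all genes.

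The inflammatory and cell type lists give the setting of these values. All 10 acute inflammatory genes rose (median log2 ratio 3.81), all 6 microglia markers fell (−1.51), 6 of 8 neuron markers fell (−0.21) and 5 of 5 astrocyte markers rose (0.42), while 0 of 5 oligodendrocyte markers were called by edgeR (0.18). All 5 choroid plexus markers were called higher in WT vehicle slices and 0 of 5 in each of the other combinations. In the single combinations, 0 to 2 of the 8 neuron markers were called lower. In the average over the combinations Gadd45b, Inhba, Nptx2 and Plk2 rose, and Pcsk1 (−0.63) and Btg2 (−0.21) fell. The part of the inflammatory response, of cell type content or of choroid plexus tissue in these differences was not tested.

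**Figure D3:**
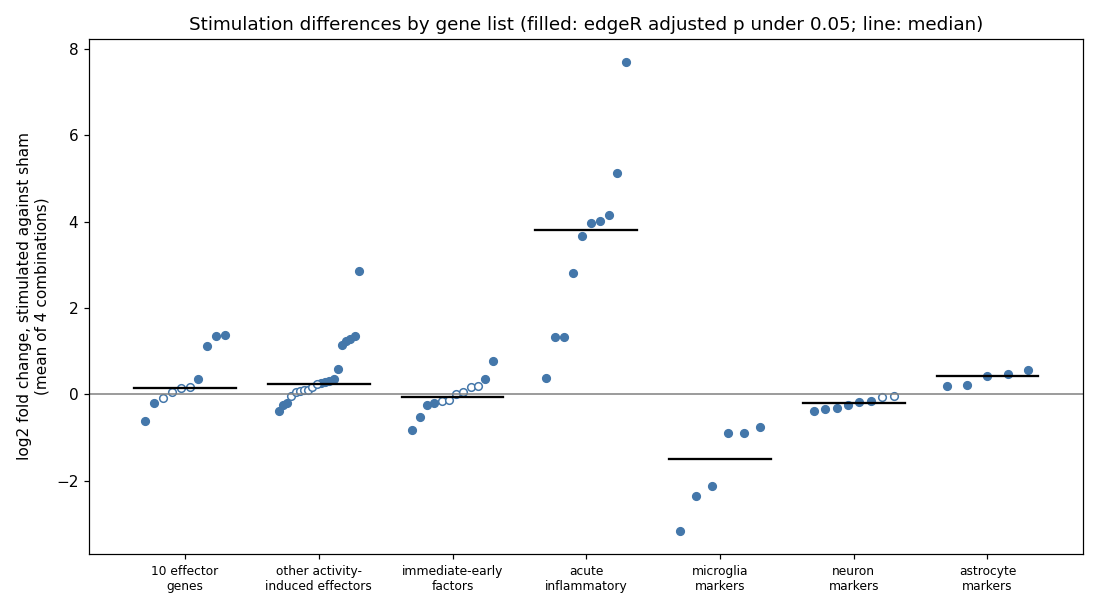
log2 ratio of stimulated against sham slices, averaged over the 4 combinations of genotype and treatment, for each gene (points; filled where the edgeR adjusted p was under 0.05) in 7 gene lists, with the list median as a line. The 10 effector genes have a median of 0.15, the acute inflammatory genes 3.81 and the microglia markers −1.51.

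The genes followed different companions over the 32 samples, by Pearson's r of log2(CPM + 1), where the samples share mice, batches and the stimulation contrast. The 3 genes nearest Gadd45b were Ppp1r15a, Rela and Myc (each r = 0.98). Nptx2 was nearest Ubn1 (0.94), Slc11a2 and Acan (both 0.92), and Inhba nearest Acan (0.93), Nup98 and Hipk1 (both 0.92), so Acan, which encodes the perineuronal net proteoglycan aggrecan, was near both. Nptx2 and Inhba had an r of 0.90 with each other. Plk2 was nearest Smcr8 (0.92), Eif5b (0.91) and Pip5k1a (0.90), and Pcsk1 nearest Camk4 (0.92), Lnx1 and Grk3 (both 0.91). The nearest genes of the other members had lower r: Arc with Csnk1g2 and Tnk2 (both 0.81) and Sbk1 (0.80), Homer1 with Nr4a3 (0.75), Nr4a2 (0.72) and Map4k3 (0.69), Npas4 with Maco1 (0.77), Rgs4 (0.69) and Gm43279 (0.68), and Rgs2 with Rpf1 and Gm7785 (both 0.72) and Dnttip2 (0.71). Btg2 was nearest Dnase1l1 (0.72), Alox5 and Haao (both 0.70). Arc had an r of 0.45 with Homer1 and −0.08 with Npas4.

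The next comparison asked whether the APP transgene changed these genes. Gadd45b was higher in T41B than in WT slices, and Pcsk1 and Homer1 were lower on average over the 4 combinations of treatment and stimulation. By edgeR, 1 of the 10 genes was called in vehicle sham slices (6.24% of all genes), 1 in vehicle stimulated (5.79%), 2 in BD10-2 sham (5.45%) and 1 in BD10-2 stimulated slices (10.6%), and 3 on average (31.5%). Of the 3 called on average, 1 was higher in T41B (16.5% of all genes) and 2 were lower (15.1%), so the share called on average was near the background. The average counts the 2 slices of a mouse as separate samples, so its values are also given from a fit with the mouse as a random block.

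Gadd45b was 24.6 to 35.4 CPM in WT and 43.3 to 68.3 CPM in T41B vehicle sham slices, and 22.2 to 35.4 against 37.8 to 75.6 CPM in BD10-2 sham slices. It was 71.9 to 91.1 CPM in WT and 103 to 210 CPM in T41B BD10-2 stimulated slices, and these 3 pairs of groups did not overlap. Sham slices were thus already higher in T41B, 1.83-fold with vehicle (log2 ratio 0.87 ± 0.20 SE, edgeR adjusted p = 0.00675) and 1.92-fold with BD10-2 (0.94 ± 0.21, 0.00547). In BD10-2 stimulated slices it was 1.91-fold higher (0.93 ± 0.21, edgeR adjusted p = 0.00245). In vehicle stimulated slices the difference was 0.51 ± 0.20 and not called (edgeR adjusted p = 0.143). The BD10-2 sham call was lost without Mouse1590 (0.77, edgeR adjusted p = 0.0781). The average was 0.81 ± 0.10 (edgeR adjusted p = 3.11e-07), and 0.80 with the mouse as a random replicate block (limma-voom adjusted p = 1.3e-06). With a batch covariate the differences were 0.51 in vehicle sham (edgeR adjusted p = 0.0117), 0.66 in BD10-2 sham (0.000255) and 0.88 in BD10-2 stimulated slices (6.24e-06). In vehicle stimulated slices it fell to 0.17 and was not called (edgeR adjusted p = 0.383), and the average was 0.56 and still called.

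Of the 5 batches that held both genotypes, 4 had sham slices of both, and in these 4 Gadd45b sham slices were higher in T41B, by 0.28 (batch A), 0.56 (C), 0.74 (D) and 0.66 (I) on the log2(CPM + 1) scale, each from 1 T41B mouse against 1 or 2 WT mice. In stimulated slices the within-batch differences were 0.46 (A), 0.03 (C) and 0.92 (I). The vehicle differences within batches were thus smaller than the pooled ones. The same comparison moved with microglia and inflammatory genes: all 6 microglia markers and all 10 acute inflammatory genes were higher in T41B on average (medians 1.07 and 1.44), and the microglia markers summed to 223 to 286 CPM in WT and 466 to 838 CPM in T41B vehicle sham slices. Of the astrocyte markers, 4 of 5 were also called higher in T41B on average (median 0.27). The part of these lists in the Gadd45b difference was not tested.

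Pcsk1 was lower in T41B in each of the 4 single comparisons, with log2 differences of −0.68, −0.66, −0.82 and −0.49 and edgeR adjusted p from 0.102 to 0.346, so none passed alone. The average was −0.66 ± 0.15 SE (edgeR adjusted p = 0.000993), a level 0.631 times that of WT, and −0.74 with the mouse as a random replicate block (limma-voom adjusted p = 0.00234). In BD10-2 sham slices the groups did not overlap, at 24.5 to 35.2 CPM in WT and 12.3 to 21.1 CPM in T41B, and the difference was called when only these groups were fitted (−0.82, edgeR adjusted p = 0.0172). Within batches Pcsk1 was lower in T41B in all 4 sham comparisons (−0.33, −0.51, −1.44 and −1.08 in batches A, C, D and I) and in all 3 stimulated ones (−0.83, −0.36 and −0.10 in A, C and I). Neuron markers summed to 3001 to 3740 CPM in T41B and 3705 to 4379 CPM in WT vehicle sham slices, and 4 of 8 were called lower in T41B on average (median −0.25); their part was not tested.

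Homer1 was 211, 227 and 173 CPM in WT BD10-2 sham slices and 129, 130, 137, 154 and 157 CPM in the T41B BD10-2 sham slices, with no overlap. It was 0.694 times as high in T41B (log2 ratio −0.53 ± 0.12 SE, edgeR adjusted p = 0.0063), a call that was lost without Mouse1571 (−0.44, edgeR adjusted p = 0.0936). The vehicle differences were 0.05 ± 0.12 in sham and 0.00 ± 0.12 in stimulated slices (edgeR adjusted p = 0.821 and 0.992). The average was −0.20 ± 0.06 (edgeR adjusted p = 0.0114) and −0.19 with the mouse as a random replicate block (limma-voom adjusted p = 0.0479). This average was not called without Mouse1565 (−0.17, edgeR adjusted p = 0.0625) or without Mouse1571 (−0.18, 0.0503). In BD10-2 stimulated slices the Homer1 difference was −0.33 ± 0.12 and not called (edgeR adjusted p = 0.0779), and of its refits it passed without Mouse1586 (−0.44, edgeR adjusted p = 0.0455) or without Mouse1592 (−0.39, 0.041). Within batches the BD10-2 sham difference was −0.33 in batch D and −0.75 in batch I. In BD10-2 sham slices 2 of 8 neuron markers were called lower in T41B (median log2 ratio −0.26). There 9 of 10 acute inflammatory genes (1.63), 4 of 6 microglia markers (1.14) and 2 of 5 astrocyte markers (0.27) were called higher. The part of these lists in the Homer1 difference was not tested.

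Nptx2 was called higher in T41B in vehicle stimulated slices only, at 42.2, 55.3, 62.6 and 66.3 CPM against 31.5, 31.5, 34.5 and 36.9 CPM in WT. The groups did not overlap, and the difference was 1.69-fold (log2 ratio 0.75 ± 0.20 SE, edgeR adjusted p = 0.0193). With a batch covariate it was 0.65 and not called (edgeR adjusted p = 0.136), and it was lost without Mouse1513 (0.72, 0.065), Mouse1522 (0.72, 0.0573) or Mouse1551 (0.67, 0.0908). Within batches it was 0.80 (A) and 0.28 (C). In the same comparison 9 of 10 acute inflammatory genes (median log2 ratio 1.24) and 3 of 6 microglia markers (0.80) were called higher in T41B, and 2 of 5 choroid plexus markers (−2.64) and 2 of 8 neuron markers (−0.29) lower; their part was not tested. The other 3 comparisons gave −0.15 to 0.23. Inhba, Plk2, Rgs2, Btg2, Arc and Npas4 were called in none of the 4 genotype comparisons, with single log2 differences between −0.59 (Inhba, BD10-2 sham, edgeR adjusted p = 0.241) and 0.51 (Arc, vehicle sham, 0.211). Leaving out 1 mouse gave a call in vehicle sham slices for Arc, without Mouse1524 (0.76, edgeR adjusted p = 0.0299), and for Npas4, without Mouse1579 (−0.93 against −0.30 with it, 0.0099). On average over the 4 combinations Nptx2 was called without Mouse1553 (0.28, edgeR adjusted p = 0.019) or Mouse1565 (0.32, 0.031), Plk2 without Mouse1522 (0.18, 0.0067) and Btg2 without Mouse1590 (0.19, 0.0457).

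**Figure D4:**
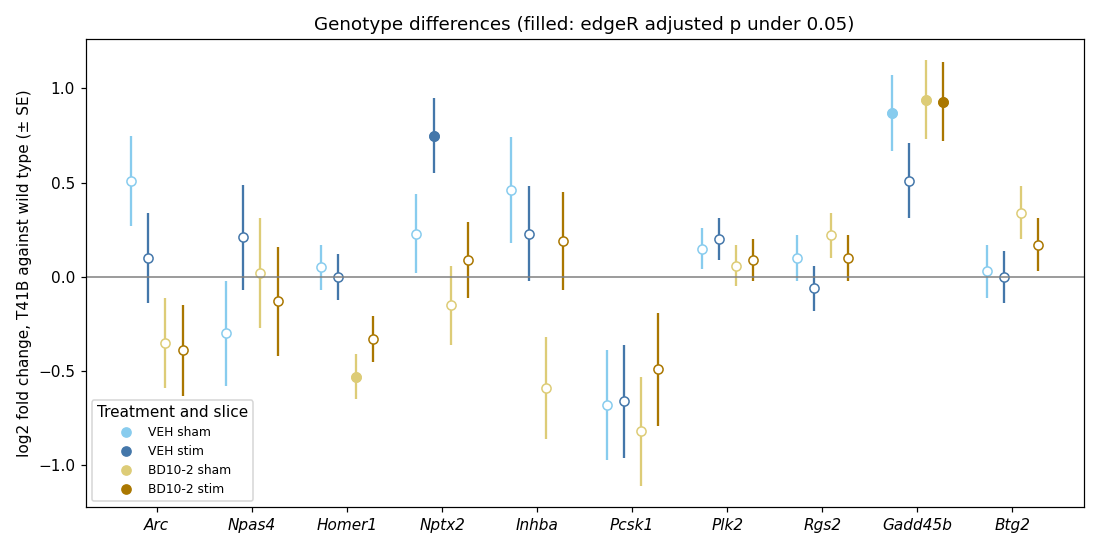
log2 ratio of T41B against WT for each gene in vehicle sham, vehicle stimulated, BD10-2 sham and BD10-2 stimulated slices (points, with the SE as bars; filled where the edgeR adjusted p was under 0.05). Gadd45b lies above 0 in all 4 and is filled in 3, Pcsk1 lies below 0 in all 4 without being filled, and Homer1 is filled in BD10-2 sham slices only.

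BD10-2 was compared with vehicle within each genotype and slice condition. Since each batch held 1 treatment, treatment and batch cannot be told apart. edgeR called 0 of the 10 genes and 0 of all genes tested (0.00%) in each of the 4 comparisons. At an unadjusted p under 0.05 there were 3 of the 10 members in WT sham, 1 in WT stimulated, 1 in T41B sham and 0 in T41B stimulated slices. Of the 19478 genes tested, 374, 1093, 431 and 759 were under it, in the same order. DESeq2 and limma-voom also called 0 members. Of all genes, DESeq2 called 0.128% in WT stimulated slices and 0.00% in the other 3 comparisons, and limma-voom called 0.00% in each, so 0 of 10 was the background. The clearest was Homer1 in WT sham slices, at 173, 211 and 227 CPM with BD10-2 against 125, 139, 152 and 171 CPM with vehicle. These did not overlap, and the log2 difference was 0.47 ± 0.13 SE (edgeR adjusted p = 1). The other members under the unadjusted threshold were Arc (0.64 ± 0.26 SE) and Inhba (0.71 ± 0.29) in the same slices, Nptx2 in WT stimulated (0.47 ± 0.21) and Btg2 in T41B sham slices (0.39 ± 0.13), each higher with BD10-2 and none of them called.

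Whether the stimulation difference itself depended on genotype or treatment was tested with interaction terms. edgeR called 0 of the 10 genes and 0 of all genes (0.00%) in the 4 interactions, and DESeq2 and limma-voom called 0 of the 10. Of all genes, DESeq2 called 0.0205% and 0.103% in the genotype interactions with vehicle and BD10-2 and 0.00% and 0.00513% in the treatment interactions in WT and T41B, and limma-voom called 0.0257% in the genotype interaction with BD10-2 and 0.00% in the other 3. Of the members, 1 was under an unadjusted threshold of 0.05: Inhba, whose stimulation difference with BD10-2 was larger in T41B than in WT by 0.78 ± 0.38 SE on the log2 scale and was not called (edgeR adjusted p = 1). Of the 19478 genes tested, 1683 and 846 were under this threshold in the genotype interactions with vehicle and BD10-2, and 337 and 526 in the treatment interactions in WT and T41B. For Nptx2 in vehicle mice the interaction was 0.52 ± 0.29 (edgeR adjusted p = 0.606), and for Gadd45b −0.36 ± 0.28 (0.708). Gadd45b therefore rose by amounts that were not shown to differ between genotypes, from a higher sham level in T41B. The smallest Gadd45b rise of the 4 was 2.21-fold and the largest 2.84-fold.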

How the data were processed

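RNA from 36 hippocampal slice libraries was sequenced after ribosomal RNA depletion with a stranded kit from 200 ng of total RNA, per the labels' protocols. The submitters' processing notes name cutadapt 1.8.1, STAR 2.7.6a, RSEM 1.3.1, featureCounts 1.6, SAMtools 1.11 and GRCm38.p6/mm10; which gene annotation was used, and whether counting took account of strand, is not given in the sources used here. The authors deposited expected counts per gene from RSEM, of which 5.69% of the cells hold decimals. Counts of 4 pairs of libraries with the same mouse and slice labels were summed (they differed by 8.1 to 31.64 chi-square units per degree of freedom, above sampling noise and within the 6.9 to 76.97 of the 62 pairs of libraries from different mice of 1 group; whether they are 2 slices is not given), and all counts were then rounded. CPM used TMM-scaled library sizes. The low-count filter was edgeR's filterByExpr with a minimum count of 10. All 8 groups were fitted together with edgeR 4.0.16 (quasi-likelihood F test) in R 4.3.3, with Benjamini-Hochberg adjustment over 19478 genes and calls at an adjusted p under 0.05. Standard errors were derived from the F statistic. DESeq2 1.42.0 and limma 3.58.1 were alternatives, and the test was tried on simulated data. Symbols and exon lengths came from annotation tables of the same build, with 55154 identifiers matched and 267 not.

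The mouse pairs the sham and stimulated slices: deviations from the group means correlated by 0.29 on average in the 14 same-mouse pairs (lowest 0.053) and by −0.078 in 52 pairs of different mice. The members and lists were chosen with earlier results of these data known. Named were all 10 members, those of the 20 other effectors that were called on average or in at least 2 of the 4 stimulation comparisons (and Bdnf, chosen after its values were seen), and for each member the 3 genes with the highest correlation; other lists are given by counts and medians, with single genes from them named as examples of what a list holds. In the main fit, p-values measure the spread between mice within groups. The stimulation tests, interactions and averages in that fit count both slices of a mouse as independent samples, although same-mouse slices correlated. In the fit with the mouse as a replicate block, p-values measure the spread of the within-mouse differences.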

Additional observations from a re-analysis of the deposited data

Results flagged for a closer look

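In 60 groups of 4 or 5 samples (10 genes in the groups of that size), 3 had a sample that stood far from the others; chance alone marks about 1 in 20 such groups. Arc in WT vehicle sham slices was 273 CPM in Mouse1524 against 155 to 163 CPM in the other 3 mice. Plk2 in the same group was 273 CPM in Mouse1522 against 181 to 191 CPM. Btg2 in T41B vehicle sham slices was 40.9 CPM in Mouse1579 against 29 to 30.9 CPM. The within-mouse stimulation difference of Arc was positive in 4 of 4 WT vehicle mice (mean 0.30 in log2(CPM + 1)) and negative in 4 of 4 T41B BD10-2 mice (mean −0.21); these mice differ in both genotype and treatment, and the difference between them was not tested. Such opposite directions were looked for in each of the 10 genes and every pair of the 4 combinations. How often they arise by chance was not worked out.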

How the results depend on the processing

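For the stimulation and genotype comparisons, the count of called members stayed within 1.5 times its main value in 145 pairings of a comparison with an alternative and moved further in 14. With limma-voom and the mouse as a random replicate block, 5 members were called for stimulation in WT BD10-2 slices (16% of all genes); with a batch covariate, 0 were called for genotype in vehicle stimulated slices (edgeR, 3.92%). Leaving out 1 mouse at a time gave 2 to 4 called members for stimulation in WT vehicle (6.38% to 8.84% of all genes) and 1 to 3 in WT BD10-2 slices (3.82% to 6.58%). For genotype it gave 1 to 2 in vehicle sham (2.86% to 10.6%), 0 to 1 in vehicle stimulated (3.49% to 6%), 1 to 2 in BD10-2 sham (2.43% to 5.6%) and 1 to 2 in BD10-2 stimulated slices (5.32% to 12.6%). Where this left a group with few slices, the spread was taken from all groups. Blocking on the mouse (the paired fit, replicate block) called 4, 4, 2 and 5 members for stimulation in WT vehicle, T41B vehicle, WT BD10-2 and T41B BD10-2 slices and 6 on average, against 19.6%, 27.7%, 6.39%, 22.7% and 47.5% of all genes. Besides the lost Inhba and Btg2 calls and the Rgs2 call given above, it changed no member's call. This fit held only the 14 mice with both slices, of which 2 were WT BD10-2. Pairing and the loss of the unpaired mice therefore cannot be told apart in its changes. Over all alternatives, values of members called in a comparison kept the call 473 times and lost it 26 times, values of members not called gained one 28 times, and 0 calls reversed. The treatment and interaction comparisons, with 0 called members, are not part of the first count. A fixed mouse block was not run for genotype or treatment, which differ between mice, nor a batch covariate for treatment; the averages use all 8 groups, so the fit on only the groups compared gave no value for them. With 3 WT BD10-2 samples per group, the stimulation comparison in these mice had the largest SE of the 4 for each of the 10 genes. The genotype comparisons with BD10-2 had SEs near those with vehicle.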
